A study of Mus musculus with 10 samples.

Results

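The respiratory chain and ATP synthase subunits were examined in hearts of male mouse embryos at embryonic day 13.5, in 5 wild-type and 5 *Nos1ap* null libraries of polyA RNA. The members were the protein-coding genes whose symbols begin as the subunits of complexes I to V do (*Nduf* with a, b, c, s or v and a digit, *Sdha* to *Sdhd*, *Uqcr*, *Cox4* to *Cox8*, *Atp5*, and the mitochondrial *mt-Nd*, *mt-Co*, *mt-Cytb* and *mt-Atp*). This gave 96 of the 16973 protein-coding genes listed, 83 encoded in the nucleus and 13 in the mitochondrial genome. The null embryos were homozygous for the tm1d allele, a constitutive deletion of *Nos1ap* exon 4 in every tissue, made from C57BL/6N embryonic stem cells with Flpe and CMV-Cre and backcrossed to C57BL/6J, whereas the wild-type embryos carried the unmodified gene. Whole hearts were used, so that fewer cells of a type and less RNA per cell cannot be told apart. The labels do not say which embryos shared a litter, and each p-value measures only the spread between these libraries.

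Mitochondria make most of the ATP of a beating heart by passing electrons from NADH and succinate along complexes I to IV and using the resulting proton gradient to drive complex V, the ATP synthase. Complex II is encoded wholly in the nucleus, whereas each of the other complexes joins nuclear subunits, imported after translation in the cytosol, with subunits translated inside the mitochondrion from polycistronic transcripts of the mitochondrial genome. The symbol rule also takes in *Ndufa4*, now counted with complex IV, *Cox7a2l*, a supercomplex factor, *Atp5s*, a coupling factor, and *Atp5sl*, which is linked to the assembly of complex I. It leaves out *Ndufab1*, *Cyc1* and *Usmg5*, which were placed in a list of partner genes.

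The values are normalized counts (read counts divided by the size factor of the library), deposited as the mean of each genotype. Counts of single libraries could be derived from the means of 23 members, all nuclear and with both means under 1000. The other 73, among them every mitochondrial subunit, could not be compared by library. Of these, *Ndufa8* and *Ndufs6* have derived counts in the null libraries only (944 to 1053 and 740 to 927 normalized counts), and the rest a mean of each genotype with no replicate error. The read pairs counted on the listed genes were estimated at 11328000 to 14023000 per library. *Nos1ap* itself lay at 126 to 161 normalized counts in the wild-type libraries and at 31.1 to 44.4 in the null ones, with no overlap. All 10 cardiomyocyte markers examined were present, with a summed mean of 328913 in wild type and 333816 in null. Libraries are numbered by falling size factor within a genotype. Wild-type library 1 and null library 2 stood apart by the level of short transcripts, and wild-type library 3 by neuronal markers (432.6 normalized counts of the pair with known counts, against 40.3 to 62.1 elsewhere). The summed counts of 4 lung epithelium markers were also highest in wild-type library 3 (38.7, against 4.03 to 10.3). The sum of 10 skeletal muscle markers was highest there too (613.8, against 342.7 to 548.0). Of the lung markers, *Cdh1*, *Epcam* and *Foxa2* were highest in this library, and *Sftpb* was at 0. Of the muscle markers, *Tnni2*, *Tnnt3*, *Actn3* and *Myf6* were higher in another library, and the others were highest in this one. Null library 2 was the highest for the 4 erythroid markers with derived counts (526.9, against 106.9 to 321.0). The 12 erythroid markers summed to 224626 in wild type and 318690 in null, a ratio of 1.42. Their part in the results was not tested.

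Levels were compared between genes per kb of the annotated transcript. In wild type, the median nuclear subunit lay at 1305 normalized counts per kb in complex I, 1945 in complex II, 3035 in complex III, 3085 in complex IV and 3490 in complex V. In null, the same medians were 1339, 1952, 2986, 3012 and 3376, in the same order. Among nuclear subunits, complex I thus had the lowest median in both genotypes. Its range from the 25th to the 75th percentile ran from 1154 to 1538 per kb in wild type, whereas that of complex IV ran from 1605 to 4503 and that of complex V from 3168 to 6102.

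**Figure D1:**
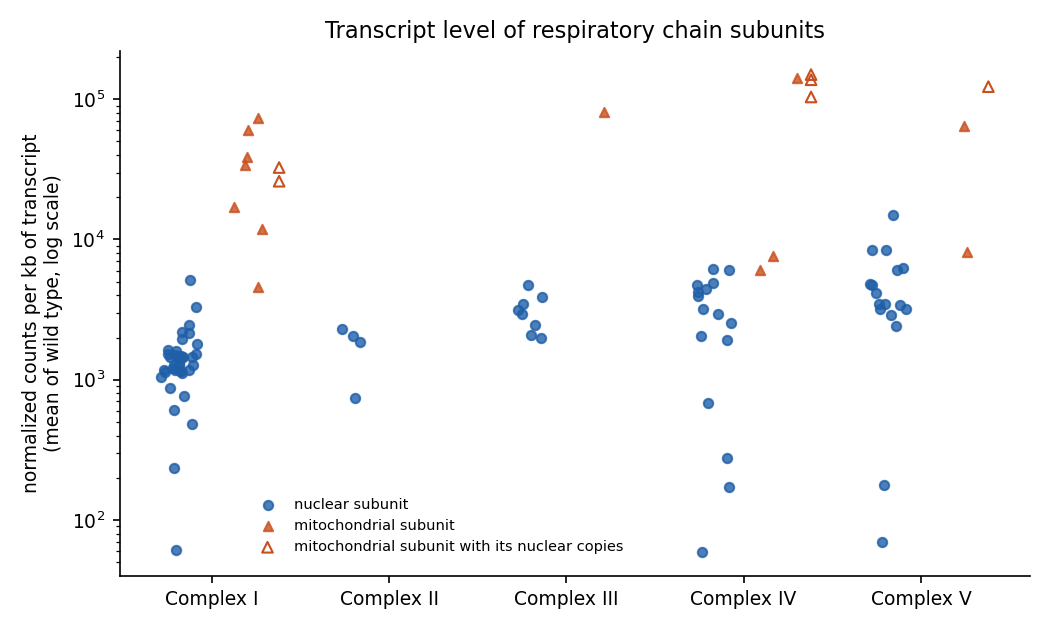
Transcript level of the 95 subunits with a mean of at least 10, in normalized counts per kb (log scale, mean of wild type), by complex. Circles are nuclear subunits and filled triangles mitochondrial ones, and open triangles add the reads counted on near-identical nuclear copies, which take *mt-Co2* from 6041 to 137470 per kb.

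The highest and lowest members mark the range within a complex. Of the genes grouped under complex I by symbol, *Ndufa4* was highest at 5137 per kb in wild type and 4964 in null. Its paralogue *Ndufa4l2*, known from the response to low oxygen, was lowest at 61.2 and 63.1. Since *Ndufa4* is now counted with complex IV, the next genes are also given. The next highest was *Ndufb8* at 3289 and 3258. The next lowest was *Ndufb4* at 234.8 and 217.2, without the reads counted on its near-identical copy. *Ndufb8* is named here after its values were seen. In complex II, *Sdhb*, the iron-sulfur subunit, lay at 2310 and 2295, *Sdhd*, a membrane anchor, at 2042 and 2011, and *Sdha*, the flavoprotein that oxidizes succinate, at 1847 and 1893. *Sdhc*, the other anchor, was lowest at 740.5 and 719.8. In complex III, *Uqcrh*, the hinge protein beside cytochrome c1, lay at 4748 and 4719, and *Uqcrfs1*, the Rieske iron-sulfur protein, at 1983 and 1988. *Cox8a* was the highest nuclear subunit of complex IV, with 6202 and 6044. *Atp5b*, the catalytic beta subunit, was the highest nuclear member of all complexes at 15023 and 15394, and *Atp5s* was the lowest of complex V at 69.5 and 71.7.

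Several subunits of complexes IV and V exist as isoforms from separate genes, and the balance between them differs between tissues. At this stage the widely expressed isoform was the higher of each pair of complex IV. *Cox6a1* lay at 4420 per kb in wild type and 4329 in null, against 2041 and 2050 for *Cox6a2*, the heart and skeletal muscle isoform, a ratio of 2.17 and 2.11. For *Cox7a2* over its muscle isoform *Cox7a1* the ratio was 4.34 in wild type and 4.19 in null, and for *Cox8a* over the muscle isoform *Cox8b* it was 22.5 and 21.6. Of the muscle isoforms, only *Cox6a2* thus came within 3-fold of its partner. *Cox7a2l* lay at 1912 and 1860 per kb.

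The other complex IV isoforms were rare. *Cox4i1* exceeded *Cox4i2*, an isoform best known from the lung, 103-fold in wild type and 87.1-fold in null, and *Cox6b1* exceeded *Cox6b2*, known from the testis, 28.7-fold and 28.9-fold. *Cox7b2*, also a testis isoform, was covered by 4 reads in all wild-type libraries and 5 in all null ones, next to 2542 and 2538 normalized counts per kb for *Cox7b*. The 3 genes for the identical mature c subunit of the ATP synthase were all expressed: *Atp5g3* at 8418 and 8314 per kb, *Atp5g1* at 4785 and 4591, and *Atp5g2* at 4769 and 4725. These levels use the shortest principal transcript, of 596 bases for *Atp5g1* and 441 for *Atp5g2*. The longest ones have 4715 and 731 bases, so that the order of these 2 genes rests on the transcript chosen.

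The question of the comparison was whether loss of *Nos1ap* changed these transcripts. None of the subunits with a replicate error did so by the test. The test covered 16 members of complex I by symbol, 4 of complex IV, and *Atp5s* and *Atp5sl* of complex V. No member of complexes II and III was tested, and no other member of complex V. Of 22 nuclear members tested by limma on the derived counts, 0 passed FDR 1% with an absolute log2 fold change over 1, as 0.0292% of all 10290 genes tested did. At an unadjusted p under 0.05, limma gave 0 of the 22, and the voom form of limma also gave 0, against 3.56% of all genes. The genotypes were separated without overlap for 0 of the 22, against 0.787% of all genes. The fitted log2 fold changes ran from -0.11 to 0.21, with standard errors from 0.047 to 0.14, and 15 were below 0. The 95% interval lay within 0.25 of 0 on the log2 scale for 17 of the 22. Without wild-type library 1 and null library 2, a setting chosen after seeing the data, limma again called 0 and gave 0 with an unadjusted p under 0.05.

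*Cox4i2* had the largest difference among the 22. Its wild-type libraries held 38.3, 39.7, 42.8, 51.6 and 43.5 normalized counts, and its null libraries 47.7, 58.3, 54.4, 40.8 and 49.0. The groups overlapped, since null library 4 lay below 3 wild-type libraries. The mean was 43.2 ± 5.18 (SD, n = 5) in wild type and 50.1 ± 6.70 in null, and the limma log2 fold change of 0.21 had a 95% interval from -0.092 to 0.51 (exact two-sided permutation p = 0.119, limma adjusted p = 0.998).

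*Ndufa5*, an accessory subunit of the peripheral arm of complex I, held 1011, 943, 849, 897 and 880 normalized counts in wild type and 878, 927, 829, 798 and 872 in null. Wild-type library 1 was the highest of all 10, null library 4 the lowest, and the other libraries overlapped. The limma log2 fold change was -0.089 (SE 0.050, 95% interval from -0.19 to 0.015), with an exact permutation p of 0.175 and a limma adjusted p of 0.998. *Ndufa6*, another accessory subunit of this arm, held 873, 895, 738, 895 and 843 in wild type and 791, 894, 816, 756 and 773 in null. Its log2 fold change was -0.074 (SE 0.055, 95% interval from -0.19 to 0.041, exact permutation p = 0.270, limma adjusted p = 0.998). Wild-type library 3, low for *Ndufa6*, and null library 2, high for both genes, each bear on these values. Without wild-type library 3, the unadjusted limma p was 0.0310 for *Ndufa5* and 0.0190 for *Ndufa6*, and without null library 2 it was 0.0268 and 0.0419, while the adjusted limma p-values stayed at 0.836 or above. *Ndufa6* is named here after its values were seen.

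*Atp5sl* held 449, 432, 417, 418 and 406 normalized counts in wild type and 407, 497, 471, 423 and 459 in null. Null libraries 2, 3 and 5 were above every wild-type library, whereas null library 1 was below 4 of them. The limma log2 fold change was 0.086 (SE 0.058, 95% interval from -0.035 to 0.21, exact permutation p = 0.167, limma adjusted p = 0.998).

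The muscle isoforms with derived counts did not separate the genotypes either. *Cox7a1* lay between 235 and 291 in the wild-type libraries and between 231 and 303 in the null ones (log2 fold change -0.0069, 95% interval from -0.16 to 0.15, limma adjusted p = 0.998). *Cox8b* lay between 89.6 and 110 in wild type and between 84.5 and 117 in null, with a 95% interval from -0.21 to 0.25. For *Cox6b2* the ranges were 69.7 to 90.5 and 61.2 to 96.5, and for *Ndufa4l2* they were 53.8 to 61.9 and 47.3 to 73.4. Null library 2 was the highest of all 10 for *Cox7a1*, *Cox6b2* and *Ndufa4l2*.

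Subunit levels varied together from library to library within a genotype. After centring each of the 22 members on its mean over the 10 libraries, the median member lay at 0.12 on the log2 scale in wild-type library 1 and at 0.090 in null library 2, and 19 of the 22 were above their mean in each. In wild-type library 3 the median was -0.065 and 2 of the 22 were above their mean. The 16 members of complex I with derived counts summed to 11851, 11341, 10250, 10922 and 10513 normalized counts in the wild-type libraries. In the null libraries the sums were 10728, 11477, 10459, 10429 and 10405. The lowest sum of all was thus that of a wild-type library, and null library 2 exceeded all wild-type libraries but library 1.

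**Figure D2:**
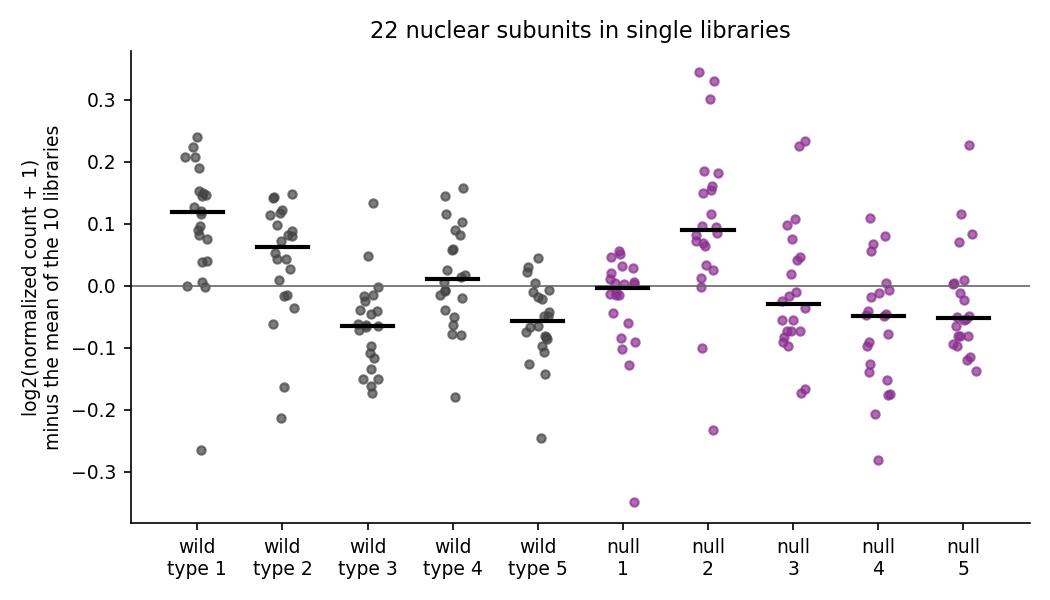
The 22 nuclear subunits with derived counts and a mean of at least 10, in each library, as log2(normalized count + 1) minus the mean over the 10 libraries. Points are subunits and bars their median, which is 0.12 in wild-type library 1, 0.090 in null library 2 and -0.065 in wild-type library 3.

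Over all members, the means of the genotypes differed little, and the nuclear and mitochondrial subunits lay on opposite sides of 0. Of 82 nuclear subunits with a mean of at least 10, 60 had a lower mean in null, with a median log2 ratio of -0.020, whereas 2 of 13 mitochondrial subunits did, with a median of 0.019. Of all protein-coding genes with such a mean, 50.5% were lower in null, with a median of -0.00093. At means of 1000 or more, 44.2% of protein-coding genes were lower in null, with a median of 0.0057. The ratio exceeded 0.1 in size for 3 of the 95 members (*Cox4i2*, *Ndufb4* and *Ndufa12*), against 24.0% of all protein-coding genes. Among genes with a mean of at least 1000 this share was 4.27%, and 1 of the 70 members at that level, *Ndufa12*, lay outside the range from -0.074 to 0.11 that held the central 95% of such genes. No test is given here for these ratios, since the deposited means of most members carry no replicate error. The authors' p-values for single genes were not used.

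By complex, 28 of 37 nuclear subunits of complex I were lower in null, with a median log2 ratio of -0.030. The counts were 3 of 4 in complex II (median -0.016), 5 of 8 in complex III (-0.0099), 12 of 16 in complex IV (-0.020) and 12 of 17 in complex V (-0.018). In complex II, *Sdha* lay at 0.035, *Sdhb* at -0.0090, *Sdhd* at -0.022 and *Sdhc* at -0.041. The lowest ratios were those of *Ndufb4* (-0.11), *Ndufa12* (-0.10) and *Ndufa5* (-0.089), accessory subunits of complex I. The highest were those of *Cox4i2* (0.21), *Atp5sl* (0.089) and *Ndufs1* (0.083), which carries iron-sulfur clusters in the arm that receives electrons from NADH. *Ndufa12* had a mean of 1284 in wild type and 1197 in null, and *Ndufs1* of 3273 and 3467. Summed over the subunits of both genomes, the chain took 6.98% of the normalized counts of protein-coding genes in wild type and 6.97% in null.

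**Figure D3:**
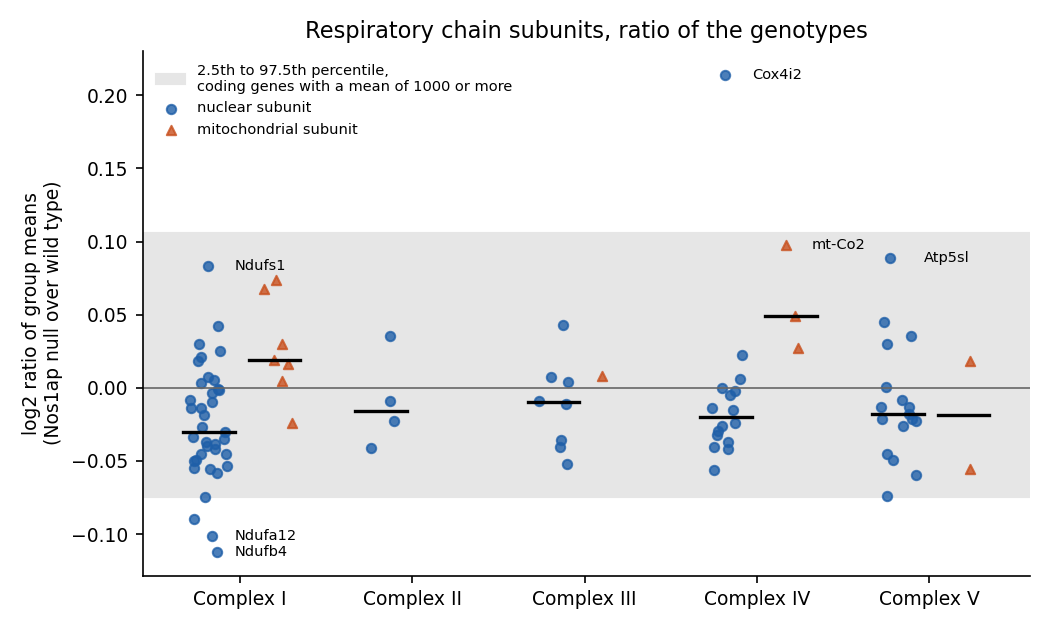
Log2 ratio of the genotype means (null over wild type) for the 95 members with a mean of at least 10, by complex. Circles are nuclear and triangles mitochondrial subunits, black bars are medians, and the grey band from -0.074 to 0.11 holds the central 95% of protein-coding genes at means of 1000 or more.

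The ratio of the nuclear subunits varied with transcript length. Nuclear members are short, with a median transcript of 727 bases, against 3304 bases for protein-coding genes with a mean of at least 500. Of the 82 nuclear members, the 55 with a transcript under 1 kb had a median log2 ratio of -0.030, the 21 from 1 to 2 kb of -0.0016 and the 5 from 2 to 3 kb of 0.035. The longest, *Sdhc* with 3171 bases, went against this order at -0.041. Across all protein-coding genes at means of 500 or more, the median likewise ran from -0.026 under 1 kb, through -0.0093, 0.00092 and 0.011, to 0.019 at 5 kb and above. Under 1 kb, 75.3% of these 352 genes, the members included, were lower in null. Of the 47 nuclear members at that level, 43 (91.5%) were lower in null. Set against all protein-coding genes of the same length class, in finer classes than those above, the median of the nuclear members was 0.0059. In the class under 1 kb given above, the members had the lower median (-0.030, against -0.026 for all genes). Spearman's rho between length and log2 ratio was 0.38 over the 82 members, which share the same libraries.

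Single libraries differed in the same respect. The median short transcript (under 1 kb, 323 genes with a mean of at least 200) lay 0.11 above its mean over libraries in wild-type library 1, 0.093 above in null library 2, 0.064 below in null library 4 and 0.047 below in null library 5 on the log2 scale. In wild-type library 1, transcripts of 5 kb and more lay 0.059 below their mean. The part of this in the ratios of the subunits without derived counts was not tested. With the length trend subtracted, also chosen after seeing the data, limma called 0 of the 22 members and gave 0 with an unadjusted p under 0.05.

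**Figure D4:**
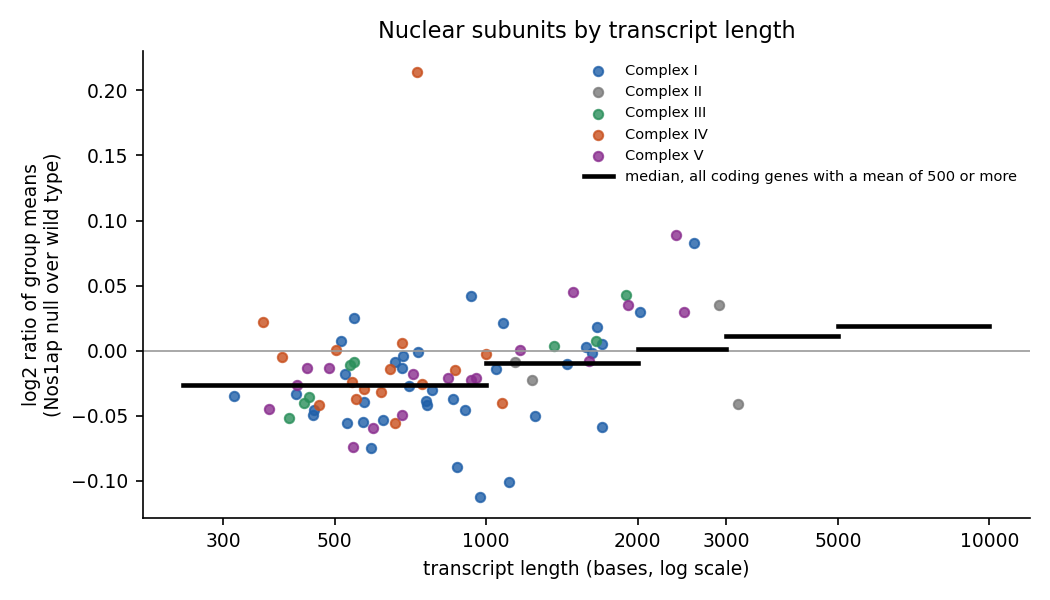
Log2 ratio of the genotype means (null over wild type) against transcript length (bases, log scale) for the 82 nuclear subunits with a mean of at least 10, coloured by complex. Black lines are the medians of all protein-coding genes with a mean of at least 500 in each length class, from -0.026 under 1 kb to 0.019 at 5 kb and above.

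The highest levels were those of mitochondrial subunits, although 5 of the 13 lay below the nuclear *Atp5b*. *mt-Co1*, the catalytic core of complex IV, lay at 140624 normalized counts per kb in wild type and 143321 in null, followed by *mt-Cytb*, the core of complex III that moves electrons between quinone sites, at 81297 and 81751. *mt-Nd1*, *mt-Nd4*, *mt-Nd2* and *mt-Nd5*, membrane subunits of complex I, lay at 73308, 60178, 38854 and 33826 in wild type and 74274, 60370, 39292 and 35597 in null. *mt-Atp8*, a small subunit of the ATP synthase, had 64469 and 65293. *mt-Nd4l* had 17156 and 17976, and *mt-Nd6*, the only member transcribed from the other strand, 11950 and 12198. Lowest were *mt-Atp6*, which forms the proton channel with the c ring (8131 and 7823), *mt-Co3* (7640 and 7904), *mt-Co2*, which accepts electrons from cytochrome c (6041 and 6465), and *mt-Nd3* (4611 and 4534).

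These last 4 are among the genes with a near-identical copy in the nuclear genome. A stretch of mitochondrial sequence stands in chromosome 1 (GRCm38, chr1:24611535-24616197, minus strand, 4663 bases), where GENCODE annotates 7 unprocessed pseudogenes. The copies of *mt-Co2* (*Gm28661*), *mt-Atp6* (*Gm10925*), *mt-Co3* (*Gm28437*), *mt-Nd4l* (*Gm10222*) and *mt-Nd4* (*Gm28439*) have 0 differences over 681, 678, 783, 294 and 876 bases. The copy of *mt-Nd3* (*Gm28438*) has 1 difference in 345 bases, T3C, and that of *mt-Co1* (*Gm29216*) is identical over its last 479 bases and has 6 differences before them. Positions are counted from 1 at the first base of the mitochondrial gene. The sequences of 3 pairs, from the GENCODE transcripts, show how little there is to tell the copies from the genes. The first pair is the start of *mt-Co2*, the others are the places where *mt-Nd3* and *mt-Co1* differ from their copies, and capitals mark the bases that differ.
mt-Co2, bases 1 to 29: atggcctacccattccaacttggtctaca
Gm28661: atggcctacccattccaacttggtctaca
mt-Nd3, bases 1 to 29: atTaacctgtacactgttatcttcattaa
Gm28438: atCaacctgtacactgttatcttcattaa
mt-Co1, bases 1054 to 1082: ggTCtAAcCggaAttgttttatccaactc
Gm29216: ggATtGGcAggaTttgttttatccaactc

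The counts of these genes were split between gene and copy. *Gm28661* was listed at 89876 normalized counts in wild type and 89894 in null, against 4132 and 4422 for *mt-Co2* itself. Of the summed counts of gene and copies in wild type, the copies held 95.6% for *mt-Co2*, 93.4% for *mt-Atp6*, 92.6% for *mt-Co3*, 82.3% for *mt-Nd3* and 47.3% for *mt-Nd4l*. The share was 6.01% for *mt-Co1* and 0.175% for *mt-Nd4*. Such reads cannot be told apart where the sequences are identical, and the split was made by the authors' counting.

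Summed with their copies, the low genes moved up among the mitochondrial subunits. Per kb, *mt-Co2* reached 137470 in wild type and 137920 in null, *mt-Atp6* 122782 and 122463, and *mt-Co3* 103642 and 101678, next to 149621 and 151340 for *mt-Co1*. *mt-Nd4l* reached 32560 and 34229, and *mt-Nd3* 25998 and 25486.

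The ratios of these genes changed with the sum as well. *mt-Co2*, the mitochondrial subunit with the highest log2 ratio alone (0.098), had 0.0047 with its copies. *mt-Co3* went from 0.049 to -0.028, on the other side of 0, and *mt-Atp6* from -0.056 to -0.0037. *mt-Nd3* stayed at -0.024 and -0.029, and *mt-Nd4l* at 0.067 and 0.072. With the copies, 10 of the 13 mitochondrial subunits had a higher mean in null, the median log2 ratio was 0.016, and *mt-Nd5* had the highest (0.074). The remaining genes lay at 0.030 (*mt-Nd6*), 0.019 (*mt-Nd1*), 0.018 (*mt-Atp8*), 0.016 (*mt-Nd2*), 0.016 (*mt-Co1* with its copies), 0.0080 (*mt-Cytb*) and 0.0054 (*mt-Nd4* with its copy).

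**Figure D5:**
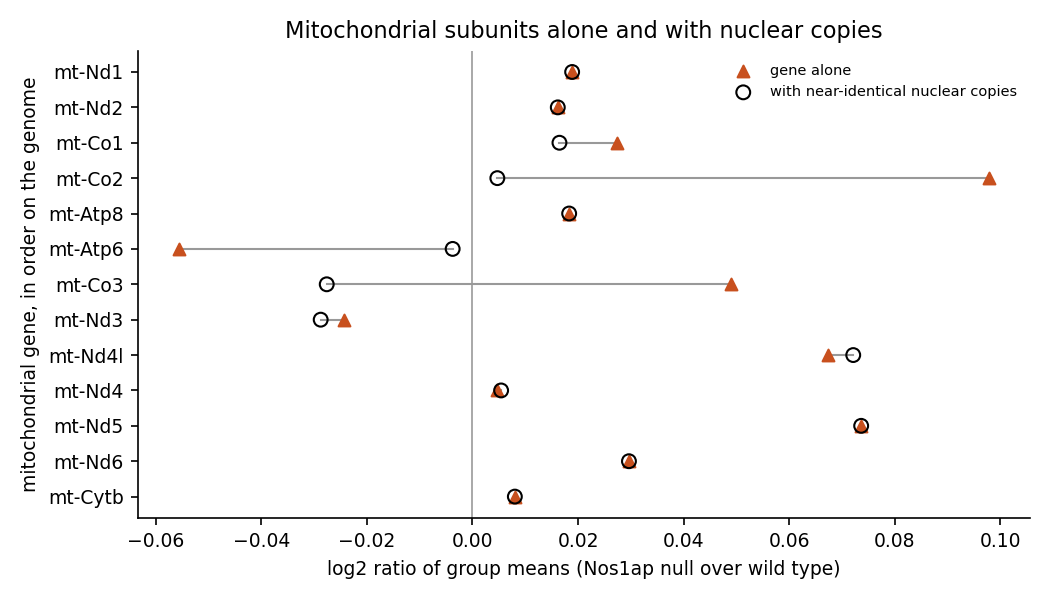
Log2 ratio of the genotype means (null over wild type) for the 13 mitochondrial subunits in the order of their genome, for the gene alone (triangles) and summed with near-identical nuclear copies (open circles). *mt-Co2* moves from 0.098 to 0.0047 and *mt-Co3* from 0.049 to -0.028.

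The mitochondrial subunits took 5.24% of the normalized counts of protein-coding genes in wild type and 5.26% in null, and the nuclear subunits 1.74% and 1.71%. The mitochondrial share is thus higher in null by the deposited counts, but with the copies added it was 7.39% in wild type and 7.36% in null. Neither order could be tested against the spread between libraries. Globin genes took 1.92% of these counts in wild type and 2.69% in null, and without them in the total the mitochondrial share was 5.34% and 5.40%.

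Reads were also counted on a processed copy of a nuclear member. Whether they come from the gene or from the copy was not tested. *Ndufb4*, an accessory subunit of complex I whose gene spans chr16:37647170-37654453 on the minus strand (GRCm38), shares 390 identical bases with *Gm3244*, at chr15:73809507-73809896 on the minus strand. *Ndufb4* held 234, 242, 240, 207 and 216 normalized counts in wild type and 227, 204, 211, 212 and 201 in null, with 3 wild-type libraries above every null library (limma log2 fold change -0.11, SE 0.068, 95% interval from -0.25 to 0.032, exact permutation p = 0.0714, limma adjusted p = 0.998). *Gm3244* held 652, 647, 569, 627 and 622 in wild type and 634, 643, 567, 609 and 667 in null. The sum of both was 851 ± 34.8 (SD, n = 5) in wild type and 835 ± 36.8 in null (exact permutation p = 0.484), a log2 ratio of -0.029 in place of -0.11 for *Ndufb4* alone. Copies also held 13.9% of the summed wild-type counts for *Atp5l*, 10.6% for *Cox7c* and 5.83% for *Atp5g2*, and 0.999% or less for the other nuclear members with a copy.

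Genes that build or feed the chain gave no call. Their list also holds subunits that the symbol rule leaves out, among them *Ndufab1*, *Cyc1* and *Usmg5*. Of 53 assembly factors and electron carriers with a mean of at least 10, 37 were lower in null, against 50.5% of all protein-coding genes, with a median log2 ratio of -0.028. At means of 500 or more, that share of all protein-coding genes was 75.3% under 1 kb, 60.0% from 1 to 2 kb and 32.2% at 5 kb and above. The assembly factors and electron carriers were not set against genes of the same length. Limma tested 45 of them and called 0, against 0.0292% of all genes tested, with 0 at an unadjusted p under 0.05, against 3.56%. The lowest ratio was that of *Sco2* (-0.18), which delivers copper to complex IV, with 93.1 to 111 normalized counts in wild type and 84.8 to 97.54 in null, which overlap. Its exact permutation p was 0.0238 before any adjustment, its limma p 0.0732 and its limma adjusted p 0.998. The highest ratio was that of *Cox16* (0.12), an assembly factor of the same complex. *Cycs*, cytochrome c, lay at 2720 in wild type and 2671 in null.

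Of 23 genes of mitochondrial DNA expression and mitochondrial biogenesis, 9 were lower in null, with a median of 0.0050. Limma tested 20, called 0 and gave 0 with an unadjusted p under 0.05, against 0.0292% and 3.56% of all genes tested. *Ppargc1a*, a coactivator of mitochondrial biogenesis, had a mean of 1052 in wild type and 1133 in null, *Tfam*, which packages and transcribes mitochondrial DNA, 581 and 583, and *Nrf1*, a transcription factor of many subunit genes, 475.0 and 474.5. Among those with derived counts, *Polg2*, the accessory subunit of the mitochondrial DNA polymerase, had the highest log2 ratio (0.13, exact permutation p = 0.389).

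Some nuclear subunits hold short motifs near their starts, a feature that the symbol rule did not use. RefSeq promoter windows (GRCm38.p6, 250 bases before to 50 after the start) were matched to 69 of the 83 nuclear members and searched on both strands for 3 short motifs, each counted once a gene. The NRF1 motif GCGCATGCG stood in 11.6% of the 69, against 1.95% of all 27025 genes with a window. The YY1 motif AAGATGGC stood in 15.9%, against 3.19%, and the ETS family motif CCGGAAGT in 7.25%, against 4.31%. At least 1 of them was found in 33.3% of the members and 8.94% of all genes, and 1 member, *Uqcr11*, held 2 of them at separate places. Most YY1 matches of the members lay 22 to 38 bases after the start, in the transcribed part of the window. Whether they lie in coding sequence was not tested. The 27025 genes were not limited to expressed or protein-coding ones. Stretches are shown as examples with the motif in capitals, from *Atp5g2* (chr15:102671072-102671098, minus strand, NRF1), *Ndufs7* (chr10:80249464-80249489, plus strand, YY1) and *Cox8a* (chr19:7217606-7217631, minus strand, ETS on the opposite strand).
Atp5g2: gctccggccGCGCATGCGcagagcctt
Ndufs7: gccgaggccAAGATGGCggcgctggc
Cox8a: ttccgaaatACTTCCGGctcgggcgt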

How the data were processed

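PolyA RNA-seq libraries of male hearts at embryonic day 13.5, 5 of wild type and 5 of *Nos1ap* null, were grouped by the genotype in their labels. The authors trimmed reads with Trimmomatic 0.36, checked them with FastQC 0.11.5, aligned them with STAR within RSEM 1.2.31 to GENCODE M10 transcripts on GRCm38, and normalized and compared gene counts with DESeq 1.24.0. The signal values used here are the deposited group means of normalized counts, for which the authors divided the counts of a library by its size factor. The table also holds the authors' fold changes and p-values, which were not used. Which mean column is which genotype was taken from the legend of the study's table.

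Whole counts of single libraries were derived for genes with group means under 1000, by searching the sets of counts that give a mean to its last printed digit. Of these sets, the one nearest to equal expression over the libraries of a genotype was taken, unless chance sets were likely to lie as near. This settled 98.4% of wild-type and 98.5% of null means, with 4.0 and 3.0 wrong sets expected, and was tested on simulated data. The simulated counts varied little between libraries, so that genes with uneven counts were not covered by that test. Neuronal markers such as *Nefm* and *Prph* were left unsettled in wild type. The derived counts carry no replicate numbers. Size factors ran from 0.918 to 1.15. The estimated read pairs per library follow from them and the summed group means, and are no separate measure of precision.

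Protein-coding genes with a mean of at least 10 were tested on log2(normalized count + 1) with limma 3.58.1 in R 4.3.3, with trended and robust moderation and Benjamini-Hochberg adjustment over 10290 genes. The call rule was FDR 1% and an absolute log2 fold change over 1. Fold changes on this scale understate the change of low genes. For single genes, the difference of means was set against all 252 arrangements of the libraries (exact permutation, two-sided), whose smallest p is 0.00794. Python 3.11.15, numpy 2.4.6 and pandas 2.3.3 were used.

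Transcript lengths are those of the shortest principal transcript of GENCODE M21 (GRCm38). For 6 members (*Ndufb2*, *Ndufc1*, *Uqcrq*, *Atp5d*, *Atp5g1* and *Atp5g2*), the longest principal transcript is over 1.5 times as long. Near-identical copies were found with blastn 2.17.0 (95% identity over at least 150 bases of the same strand). Members were taken by symbol. Named were all mitochondrial members, the highest and lowest nuclear member of each complex per kb, isoform families, every *Sdh* gene, the 3 highest and 3 lowest nuclear ratios, and members with an unadjusted p under 0.05 or separated genotypes. Members and lists were chosen with earlier results of these data known. Alternatives changed the pseudocount, filter, weights, thresholds, centring, share denominators and libraries.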

Additional observations from a re-analysis of the deposited data

Results flagged for a closer look

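In 3 of 46 groups of 5 libraries, 1 library stood far from the other 4 for a member with derived counts (chance gives about 1 in 20). *Ndufb2*, an accessory subunit of complex I, held 840 normalized counts in wild-type library 1 and 680 to 724 in the others. *Ndufc1*, another accessory subunit, held 905 in the same library and 732 to 762 in the others. *Ndufs7*, which carries the last iron-sulfur cluster before ubiquinone, held 1057 in null library 2 and 901 to 923 in the others. The 2 libraries are those with the highest medians of short transcripts, 0.11 and 0.093 above the mean over libraries on the log2 scale. The part of transcript length in these values was not tested.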

How the results depend on the processing

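No paired analysis was possible because the deposited group means carry no replicate numbers, so that the derived counts of one genotype cannot be matched to those of the other. The count of members called was 0 with a pseudocount of 0.5, a mean of at least 50 or 1, and voom. It was also 0 with FDR 5% and no fold threshold, with centring and with each library left out. Subtracting the length trend, chosen after seeing the data, gave 0 as well. The count with an unadjusted p under 0.05 was 0 in these settings, apart from the libraries left out in turn, which gave 0 to 2 (*Ndufa5* and *Ndufa6*, without wild-type library 3 or null library 2). The median log2 fold change of the 22 members tested ran from -0.056 to 0.0039 over the libraries left out, with 0.0039 without wild-type library 1. The median ratio of nuclear subunits was -0.021 with a mean of at least 50, -0.020 with at least 1, -0.019 after centring, -0.032 over members with derived counts, and 0.0059 relative to genes of the same length, an alternative chosen after seeing the data. That of mitochondrial subunits was 0.020 after centring and 0.016 with nuclear copies, also chosen after seeing the data. The mitochondrial share was 4.98% in wild type and 5.005% in null over genes of every type, 5.34% and 5.40% without globin genes, and 7.39% and 7.36% with the copies.

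Without counts of both genotypes, the difference of 73 of the 96 members, the mitochondrial ones included, has no replicate error here. The authors' p-values for these genes were not used.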
